A study of Arabidopsis thaliana with 12 samples.

Results

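AT5G40590, AT2G39980, AT1G50110 and AT2G43140 are the 4 genes, peroxidases set aside, whose transcripts stood highest on ethylene relative to air in wild-type Arabidopsis seedlings. They were chosen by that measured wild-type change, among the 13513 of 22746 probe sets that the platform's annotation pairs with exactly 1 gene (13350 different genes). Each gene has 1 probe set, so 4 probe sets are described here on all 12 arrays. Over all probe sets the 4 genes held ranks 1, 3, 9 and 11 of the wild-type change. Of the 11 probe sets down to the last of them, 5 were not listed in the annotation and 2 were class III peroxidases, AT5G19890 and AT1G49570.

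The arrays measured transcripts in dark-grown seedlings of the Columbia accession in 6 groups of 2 arrays: ein2 in ethylene and in air, ein5 in ethylene and in air, and wild type in ethylene and in air. The series text gives the alleles as ein2-5 and ein5-1, the wild type as Col-0 and the exposure as 10 ppm ethylene for 4 h. That text and the text of array 1 of ein2 in air describe 3 days in the dark at 24 °C, while the texts of the other arrays describe 5 days at 25 °C. The labels name whole seedlings as the source, but also an extraction from mature leaves, and none says whether a group's pair of arrays stands for separate cultures. The p-values therefore cover the spread between arrays alone, which may be technical. EIN2 and EIN5 have no probe set named here, so the genotype labels could not be checked on the mutated genes.

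Ethylene is a gaseous plant hormone that dark-grown seedlings answer with a short, thick hypocotyl, a short root and a tight apical hook. Its receptors act through the kinase CTR1 and the membrane protein EIN2 on the transcription factor EIN3 and its relatives, and loss of EIN2 function makes seedlings insensitive by growth. EIN5 is a cytoplasmic exoribonuclease that degrades decapped RNA from its start, and its loss weakens the response. As background from general knowledge of the Arabidopsis genome, AT5G40590 encodes a protein with cysteine- and histidine-rich C1 domains, AT2G39980 an acyltransferase of the BAHD type (enzymes that transfer acyl groups to plant metabolites), AT1G50110 a member of the branched-chain amino acid aminotransferases, and AT2G43140 a transcription factor of the basic helix-loop-helix type. The tables used here give these genes no name beyond their locus.

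Levels are scaled intensities on a linear scale, and each array was scaled to a common median. Changes are differences of log2(scaled intensity + 16) with their standard error from a limma fit of all 12 arrays, and the SD after a level is that of 2 arrays. A probe set was called at a Benjamini-Hochberg adjusted p under 0.05 over all 22746 probe sets. Across the arrays, the deposited medians were 922.2 to 1039, and 3.86% to 6.16% of the values lay at or under the offset of 16. The 2 arrays of a group differed by a median of 0.32 on the log2 scale for wild type in ethylene and 0.25 for wild type in air, against 0.19 to 0.21 for the mutant groups. In whole seedlings, fewer cells of a type and less RNA per cell cannot be told apart. Intensities of different probe sets have no common scale, so levels are compared only within a gene.

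In wild type, where the genes were chosen, the values are a description without a test. AT5G40590 read 8801 and 8953 on the ethylene arrays, against 195 and 256 on the air arrays, a log2 change of 5.21 ± 0.22. The arrays of each gas lay close together and far from those of the other gas. AT2G39980 read 31416 and 42268 in ethylene, against 3832 and 3535 in air, a change of 3.30 ± 0.14. For AT1G50110 the ethylene arrays gave 5039 and 4845 and the air arrays 570 and 440, a change of 3.26 ± 0.19.

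AT2G43140 gave 1082 and 1304 in wild-type ethylene, against 6.93 and 105 in air, a change of 4.51 ± 0.66. Its air arrays were dim and unlike each other, and the change was 3.31 without array 1 of wild type in air and 5.71 without array 2. Between the lowest ethylene array and the highest air array of wild type the ratio of levels was still 34.3 for AT5G40590, 8.20 for AT2G39980, 8.50 for AT1G50110 and 10.3 for AT2G43140. The wild-type change of AT1G50110, 3.26, is the last inside the choice. Next below it stood the cell wall gene GH9B12 at 3.08, then AT4G35210 at 3.06, the cytochrome P450 gene CYP718 at 2.98, AT3G58590 at 2.78 and the xyloglucan endotransglucosylase gene XTH26 at 2.78.

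**Figure D1:**
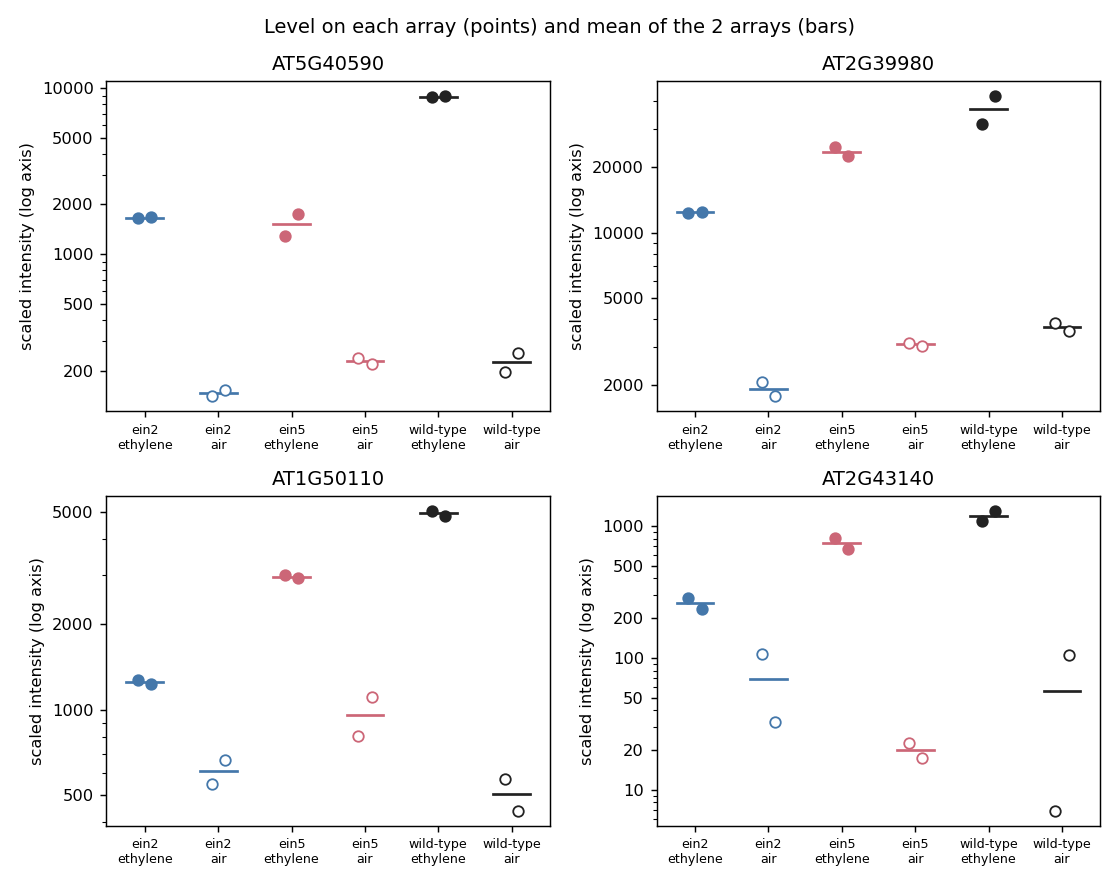
Scaled intensity (log axis) of each gene on each array, by genotype and gas; filled points are ethylene arrays, open points air arrays and horizontal bars group means. For all 4 genes both ethylene arrays lie above both air arrays in every genotype, with AT2G43140 between 6.93 and 106 in air.

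The question for ein5 was whether the same transcripts changed on ethylene when the exoribonuclease was mutated. These arrays took no part in the choice of genes. All 4 genes were called higher, against 0.774% of all probe sets called higher and 0.849% called lower in this comparison. Their median change was 2.78, beside -0.05 over all probe sets.

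AT5G40590 read 1289 and 1740 in ein5 ethylene, against 239 and 218 in ein5 air. Both ethylene arrays lay far above both air arrays, and the lowest was 5.41 times the highest air array. The change was 2.63 ± 0.22, limma adjusted p = 3.46e-05. AT2G39980 read 24603 and 22459 in ein5 ethylene, against 3116 and 3032 in ein5 air. The arrays of each gas agreed closely, and the change of 2.93 ± 0.14 had a limma adjusted p = 1.07e-07.

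AT1G50110 gave 2983 and 2906 in ein5 ethylene, against 808 and 1109 in ein5 air, a smaller step than that of the other genes (1.62 ± 0.19, limma adjusted p = 0.000395). AT2G43140 gave 815 and 665 in ein5 ethylene, against 22.5 and 17.5 in ein5 air. The groups did not overlap, and the change was 4.39 ± 0.66 (limma adjusted p = 0.00319). The air arrays of AT2G43140 were brighter than only 4.28% to 6.06% of the probe sets, so the size of this change, and any rank by size, depends on the offset: the change was 5.14 with an offset of 1 and 3.25 with an offset of 64. Its call was lost without array 1 of ein5 in ethylene (4.25, limma adjusted p = 0.0577) and without a variance trend (limma adjusted p = 0.065).

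The corresponding question for ein2 was what remained in a mutant known to be insensitive to the gas. All 4 genes had a positive change and 3 were called higher, against 0.475% of all probe sets called higher and 0.0396% called lower. The median change of the 4 genes was 2.26, beside 0.01 over all probe sets.

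AT5G40590 read 1645 and 1671 in ein2 ethylene, against 140 and 152 in ein2 air, a change of 3.37 ± 0.22 (limma adjusted p = 2.56e-06). The lowest ethylene array was 10.8 times the highest air array. AT2G39980 read 12356 and 12438 in ein2 ethylene, against 2062 and 1780 in ein2 air, and changed by 2.68 ± 0.14 (limma adjusted p = 3.46e-07). Both ein2 ethylene arrays of AT2G39980 lay above the 3832 and 3535 of wild type in air. Without array 1 of ein2 in air, whose text describes other growth conditions, the changes were 3.32 for AT5G40590 and 2.79 for AT2G39980, and both remained called.

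AT1G50110 gave 1269 and 1235 in ein2 ethylene, against 549 and 665 in ein2 air. The groups did not overlap, and the change of 1.03 ± 0.19 was called at a limma adjusted p = 0.023. That call was lost on leaving out any one of the 4 ein2 arrays: the limma adjusted p was 0.263 and 0.0802 without air arrays 1 and 2, and 0.177 and 0.194 without ethylene arrays 1 and 2. It was also lost without array 1 (0.052) or array 2 (0.0501) of ein5 in ethylene, which enter only through the shared spread, and without a variance trend (0.143). AT2G43140 gave 285 and 236 in ein2 ethylene, against 106 and 32.6 in ein2 air. These groups did not overlap either, but the change of 1.84 ± 0.66 was not called (limma adjusted p = 0.324, 95% interval 0.43 to 3.25), and it was 2.50 without array 1 of ein2 in air and 1.17 without array 2.

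**Figure D2:**
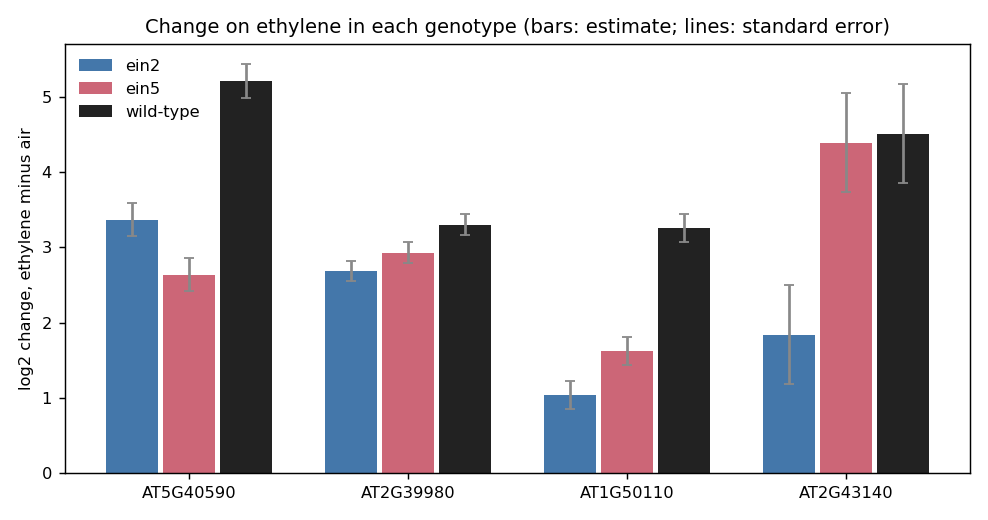
Log2 change on ethylene of each gene in ein2, ein5 and wild type, with the standard error of the fit as lines. The wild-type bars, which chose the genes, are the highest for each gene; AT2G39980 has 2.68, 2.93 and 3.30 in ein2, ein5 and wild type, while AT5G40590 has 3.37, 2.63 and 5.21.

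The fitted changes in ein2 were 3.37 for AT5G40590, 2.68 for AT2G39980, 1.84 for AT2G43140 and 1.03 for AT1G50110, but this order is settled only in part. The ein2 interval of AT2G43140, 0.43 to 3.25, holds the values of both AT2G39980 and AT1G50110 and overlaps that of AT5G40590. In ein5 the interval of AT2G43140 (2.98 to 5.80) overlaps those of AT2G39980 (2.64 to 3.22) and AT5G40590 (2.16 to 3.11), which also overlap each other. The interval of AT1G50110 lay below those of AT2G39980 and AT5G40590 in both mutants, at 0.63 to 1.43 in ein2 and 1.22 to 2.02 in ein5. Among all probe sets AT5G40590 had rank 4 in ein2 and 7 in ein5, AT2G39980 rank 14 and 6, and AT1G50110 rank 799 and 104.

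**Figure D3:**
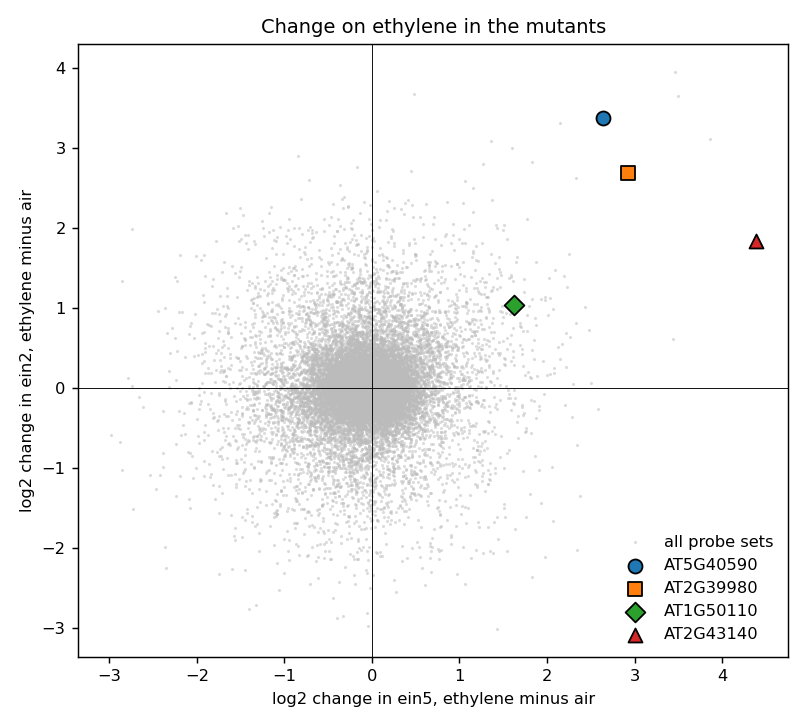
Log2 change on ethylene in ein5 (horizontal) against that in ein2 (vertical) for all 22746 probe sets (grey) and the 4 genes (large symbols). All 4 genes have positive changes in both mutants, AT2G43140 farthest to the right at 4.39 and AT5G40590 uppermost of the 4 at 3.37.

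Markers of root hairs and of seed tissue were summed over the same arrays. Of 18 root hair markers 4 were measured and named, none of them at 0, and their summed intensity was 13180 to 13270 in ein2 ethylene, against 9732 to 10180 in ein2 air, and 14460 to 15720 in ein5 ethylene, against 9744 to 11060 in ein5 air. By limma 0 of the 4 were called in either mutant, with 4 in ein5 and 3 in ein2 at an unadjusted p under 0.05, and their median changes were 0.56 in ein5 and 0.44 in ein2. Of all 22746 probe sets, 2815 in ein5 and 2264 in ein2 had such a p, and the median changes were -0.05 and 0.01. Called higher on ethylene were 0.774% of them in ein5 and 0.475% in ein2, and called lower 0.849% and 0.0396%. For seed maturation markers, 5 of 18 measured and none at 0, the sums were 23620 to 28730 in ein2 ethylene, against 33670 to 35020 in ein2 air, and 7880 to 10560 in ein5 ethylene, against 10380 to 11520 in ein5 air. In wild type the root hair sums were 19610 to 25070 in ethylene, against 13400 to 17400 in air, and the seed sums 2896 to 3784 in ethylene, against 6389 to 7807 in air. The sums add probe sets without a common scale, so bright ones weigh most: AT3G15670 alone had 15610 in ein2 ethylene, against 20200 in ein2 air. By limma 0 of the 5 seed markers were called on ethylene in either mutant, with median changes of -0.335 in ein2 and -0.165 in ein5. A positive change was seen for 2 of the 5 in ein2 and 1 in ein5. AT1G03890 was positive in both, at 0.60 ± 0.82 and 0.24 ± 0.82, and had 0.73 in wild type. Of 14 photosynthesis markers 0 were measured and named. The part of either tissue in the results was not tested.

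The mutants were then set against each other, a comparison of 8 arrays that took no part in the choice. In ethylene, AT2G39980 was 0.92 ± 0.14 higher in ein5 than in ein2 (limma adjusted p = 0.000928) and AT1G50110 was 1.22 ± 0.19 higher (limma adjusted p = 0.00114). These 2 calls of 4 stand beside 2.82% of all probe sets called higher and 7.37% called lower in ein5. That background depends on the scaling. Here 642 probe sets were called higher and 1676 lower, against 1310 and 1003 with the intensities as deposited and 995 and 1136 after quantile normalization. AT2G43140 differed by 1.45 ± 0.66 without a call (limma adjusted p = 0.194, 95% interval 0.04 to 2.86), and was called at 0.0137 when only the ein5 and ein2 ethylene arrays were fitted. For AT5G40590 the difference was -0.15 ± 0.22 (limma adjusted p = 0.755, 95% interval -0.62 to 0.33), and its sign turned to 0.0029 with the intensities as deposited and to 0.0688 without array 1 of ein5 in ethylene. Between these settings the median difference of all probe sets moved too, from -0.06 with scaled to 0.08 with deposited intensities.

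In air, 1.22% of all probe sets were called higher in ein5 than in ein2 and 1.95% lower. These are 278 and 444 probe sets, against 396 and 341 with the intensities as deposited. AT2G39980 was 0.68 ± 0.14 higher in ein5 than in ein2 in air (limma adjusted p = 0.0171), the only call of the 4. That call was lost without array 1 or 2 of ein5 in air (limma adjusted p = 0.0908 and 0.137), without array 1 or 2 of ein2 in air (0.0713 and 0.173) and without a variance trend (0.125). AT1G50110 differed by 0.63 ± 0.19 (limma adjusted p = 0.0847, 95% interval 0.24 to 1.03, and 0.0359 with array weights) and AT5G40590 by 0.59 ± 0.22 (limma adjusted p = 0.174, 95% interval 0.12 to 1.06). For AT2G43140 the difference was -1.10 ± 0.66 (limma adjusted p = 0.423, 95% interval -2.51 to 0.31) between arrays that were all dim. Seed maturation markers also differed between the mutants. In ein5 against ein2, 3 of 5 were called lower in air and 4 of 5 in ethylene, beside 1.95% and 7.37% of all probe sets. Among them AT5G66780 differed by -2.11 ± 0.23 in air, the largest difference of the 5 there. AT1G03890 went the other way without a call, by 1.03 ± 0.82 in air and 0.67 ± 0.82 in ethylene. Array 1 of ein2 in air is the one whose text describes other growth conditions. The part of these markers in the differences above was not tested.

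The difference of the ethylene responses, ein5 minus ein2, was called by limma for 0 of the 4 genes, with 3 at an unadjusted p under 0.05. Of all probe sets 0% were called positive and 0.0528% negative, and 2366 of 22746 had an unadjusted p under 0.05. The median standard error was 0.32. AT2G43140 had 2.55 ± 0.93 (limma adjusted p = 0.36, 95% interval 0.55 to 4.55), AT1G50110 0.59 ± 0.26 (0.458, interval 0.02 to 1.15) and AT2G39980 0.24 ± 0.19 (0.707, interval -0.17 to 0.66). AT5G40590 alone had a negative difference, -0.74 ± 0.31 (limma adjusted p = 0.429, 95% interval -1.40 to -0.07).

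**Figure D4:**
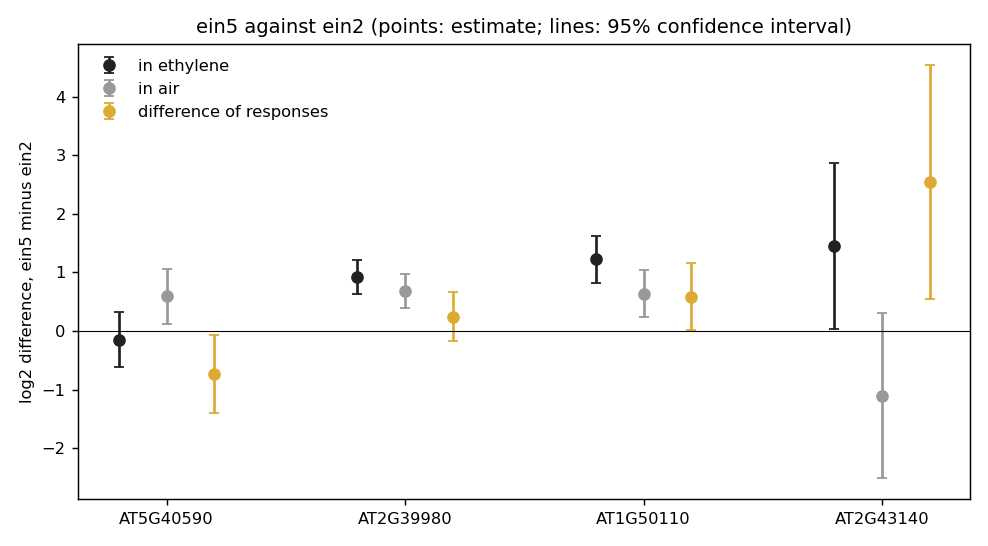
Log2 difference of ein5 minus ein2 for each gene in ethylene, in air and as the difference of the ethylene responses, with 95% confidence intervals as lines. AT2G39980 and AT1G50110 lie above 0 in ethylene, at 0.92 and 1.22, while AT5G40590 lies at -0.15 there.

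Differences from wild type use the arrays that chose the genes and are given without a test. In ethylene, AT5G40590 stood 2.41 ± 0.22 below wild type in ein2 and 2.55 ± 0.22 below it in ein5 on the log2 scale, that is at 0.188 and 0.17 of it. AT2G39980 stood at 0.34 of the wild-type ethylene value in ein2 and 0.645 in ein5, AT1G50110 at 0.256 and 0.597, and AT2G43140 at 0.229 and 0.625. For AT2G43140 the ein5 difference of -0.68 has an interval of -2.09 to 0.73, which includes 0. In air, AT2G39980 differed from wild type by -0.94 ± 0.14 in ein2 and -0.26 ± 0.14 in ein5, and AT1G50110 by 0.26 ± 0.19 in ein2 and 0.90 ± 0.19 in ein5.

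Ordered by mean level, AT5G40590 was highest in wild-type ethylene (8877 ± 108), then ein2 ethylene (1658 ± 18.9) and ein5 ethylene (1515 ± 319), whose arrays overlapped, then ein5 air (228 ± 14.9) and wild-type air (226 ± 43.3), which overlapped too, and ein2 air (146 ± 7.91). AT2G39980 fell into 6 groups without overlap between neighbours: wild-type ethylene (36842 ± 7673), ein5 ethylene (23531 ± 1516), ein2 ethylene (12397 ± 58.3), wild-type air (3684 ± 210), ein5 air (3074 ± 59.5) and ein2 air (1921 ± 200). AT1G50110 ran from wild-type ethylene (4942 ± 137) over ein5 ethylene (2944 ± 55.0), ein2 ethylene (1252 ± 23.9) and ein5 air (959 ± 213) to ein2 air (607 ± 81.9) and wild-type air (505 ± 91.8), of which the last pair overlapped. AT2G43140 ran from wild-type ethylene (1193 ± 157) over ein5 ethylene (740 ± 106) and ein2 ethylene (261 ± 34.4) to ein2 air (69.3 ± 52.0), wild-type air (56.2 ± 69.7) and ein5 air (20.0 ± 3.58), with overlaps among the air groups. Each of these is the SD of n = 2 arrays.

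The profiles of the 4 genes were alike across the 12 arrays, of which the 4 wild-type arrays had chosen them. Pearson's r of the log2 levels over 12 arrays lay between 0.85, for AT1G50110 with AT2G43140, and 0.958, for AT5G40590 with AT2G39980. Over the 8 mutant arrays r was 0.961 for AT5G40590 with AT2G39980, 0.92 for AT2G39980 with AT1G50110 and 0.795 for AT1G50110 with AT2G43140. All points share the split into ethylene and air arrays, and the values are given without a test.

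Likeness was sought among 9405 probe sets of other genes, each with 1 gene and a mean intensity of at least 200. The profile most like that of AT5G40590 was the peroxidase gene AT5G19890 (Pearson's r = 0.984 over 12 arrays). Next came AT5G17780 (0.971) and the peroxidase gene AT1G49570 (0.965). AT5G19890 rose by 3.31 ± 0.22 in ein2 (limma adjusted p = 2.56e-06) and by 2.15 ± 0.22 in ein5 (limma adjusted p = 0.000151), and its difference of responses, -1.16, was not called (limma adjusted p = 0.178). These genes were picked for their likeness over the same arrays, so a like pattern is no separate result. For AT2G39980 the most alike were AT1G49570 (0.973), AT5G02540 (0.968) and AT1G19530 (0.967). AT1G19530 rose by 1.61 ± 0.17 in ein5 and by 1.33 ± 0.17 in ein2 (limma adjusted p = 0.000231 and 0.00158), beside 1.66 in wild type.

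AT1G50110 was most like AT5G55620 (0.988), AT1G76470 (0.970) and AT4G27900 (0.957). AT5G55620 had 7886 in wild-type ethylene, 1796 in wild-type air, 5166 in ein5 ethylene and 2904 in ein5 air. It rose by 0.83 ± 0.16 in ein5 and by 0.95 ± 0.16 in ein2 (limma adjusted p = 0.017 and 0.0139). The profiles most like AT2G43140 were those of AT4G27450 (0.962), AT1G22700 (0.916) and AT2G39980 (0.910). AT4G27450 changed much less, by 0.56 ± 0.12 in ein5 (limma adjusted p = 0.03) and 0.33 ± 0.12 in ein2 (limma adjusted p = 0.334), since r compares the shape of a profile and not its size.

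**Figure D5:**
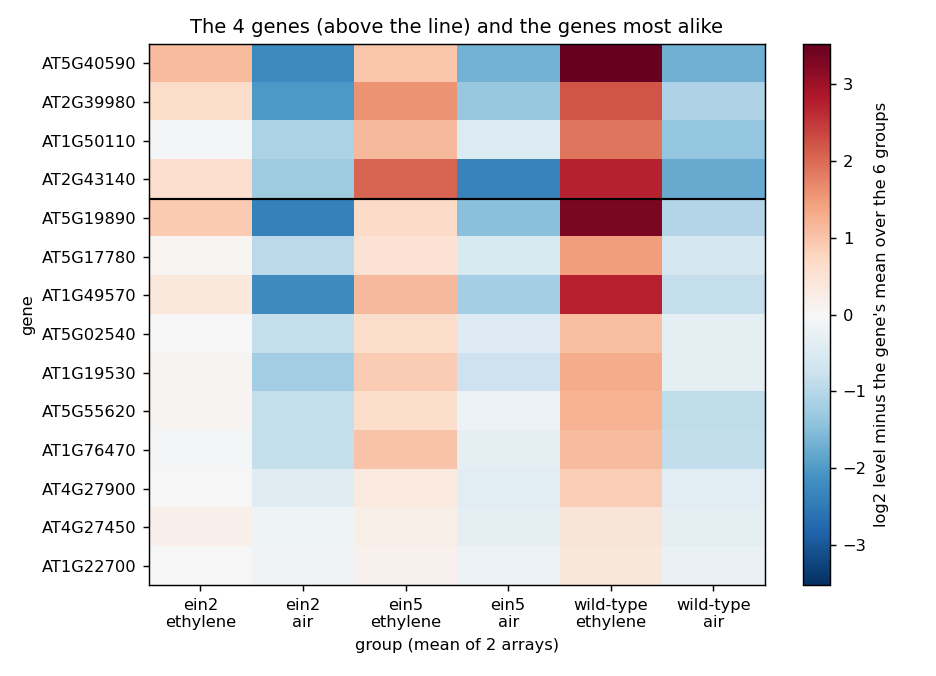
Mean log2 level of each gene in each group minus the gene's mean over the 6 groups, for the 4 genes (above the line) and the 10 other genes most alike (below it); red is higher and blue lower. Every gene is highest in wild-type ethylene, with AT5G40590 at 3.52, and AT1G22700 spans the least.

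Relatives of the genes and genes of their pathways were taken from lists of textbook members. Of 55 other BAHD acyltransferase genes 41 were measured and named. In ein5, 2 of the 41 were called higher and 2 lower on ethylene, 11 had a positive change and the median was -0.22. In ein2, 1 was called higher and 0 lower (5 at an unadjusted p under 0.05 by limma). There 21 had a positive change and the median was 0.00. For all probe sets these shares were 0.774% higher and 0.849% lower in ein5, and 0.475% higher and 0.0396% lower in ein2, where 2264 of 22746 had an unadjusted p under 0.05. AT5G01210 rose in both, by 1.25 ± 0.17 in ein5 (17940 in ethylene, against 7559 in air, limma adjusted p = 0.00123) and by 1.01 ± 0.17 in ein2 (11930 in ethylene, against 5885 in air, limma adjusted p = 0.012). AT1G27620 rose in ein5 (1.26 ± 0.26, limma adjusted p = 0.026), and AT5G47950 fell there (-0.68 ± 0.15, limma adjusted p = 0.0326). The other gene called lower in ein5 was AT2G25150 (-0.83 ± 0.13, limma adjusted p = 0.00528), named after its value was seen. In ethylene 1 of the 41 was called higher and 4 lower in ein5 than in ein2, beside 2.82% and 7.37% of all probe sets with the scaling used. The higher one was AT5G01210 (0.59 ± 0.17, limma adjusted p = 0.0375), and the lower ones included AT5G47950 and AT5G47980, by -1.73 ± 0.15 and -1.45 ± 0.17 (limma adjusted p = 1.25e-05 and 0.000165). The response of AT2G39980, 2.93 in ein5 and 2.68 in ein2, lay outside the range of the 41, which was -1.49 to 1.87 in ein5 and -1.51 to 1.57 in ein2. AT2G39980 was chosen for its large ethylene change in wild type and the 41 were not, so its place above them is no separate result.

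Branched-chain amino acid aminotransferases exchange the amino group of leucine, isoleucine and valine, the last step of their synthesis and the first of their breakdown. Besides AT1G50110, 2 of the 6 other genes of the family were measured and named. BCAT4, which acts in the making of methionine-derived glucosinolates, had 231 in ein5 ethylene, against 312 in ein5 air (-0.37 ± 0.42, limma adjusted p = 0.822), and 607 in ein2 ethylene, against 595 in ein2 air (0.04 ± 0.42, limma adjusted p = 0.987). ATBCAT-5 had 4001 in ein5 ethylene, against 4197 in ein5 air (-0.08 ± 0.15, limma adjusted p = 0.922), and 4668 in ein2 ethylene, against 4425 in ein2 air (0.08 ± 0.15, limma adjusted p = 0.924). BCAT7, the next protein-coding gene beside AT1G50110, has no probe set named here, so whether its transcripts contribute to the AT1G50110 signal cannot be told apart here.

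Of 9 genes of branched-chain amino acid breakdown 5 were measured. IVD, which encodes isovaleryl-CoA dehydrogenase, rose in ein5 (0.58 ± 0.13, 4786 in ethylene, against 3238 in air, limma adjusted p = 0.0433), and 0.48 ± 0.13 in ein2 was not called (limma adjusted p = 0.173). The median of the 5 was 0.11 in ein5 and 0.05 in ein2. Of 12 synthesis genes 2 were measured. By limma 0 of the 2 were called on ethylene in either mutant, with 1 at an unadjusted p under 0.05 in each. Over the whole array, a higher call on ethylene went to 0.774% of probe sets in ein5 and 0.475% in ein2. A lower call went to 0.849% and 0.0396%. With shares this low, 0 calls among 2 genes tell little about synthesis. AT3G23940, which encodes dihydroxyacid dehydratase, was higher in ein5 than in ein2 in ethylene (0.38 ± 0.11, limma adjusted p = 0.0431). No other gene of the helix-loop-helix subgroup of AT2G43140 was measured and named. Among 4 measured genes of 23 ethylene pathway and target genes, RTE1, a regulator of the receptor ETR1, rose by 1.28 ± 0.12 in ein5 and 1.32 ± 0.12 in ein2 (limma adjusted p = 7.24e-05 and 4.79e-05). ARL, an organ size gene, rose by 1.01 ± 0.12 in ein5 and 1.43 ± 0.12 in ein2 (limma adjusted p = 0.000431 and 1.94e-05). The other 2 of the 4 were called in neither mutant. RTE1 and ARL were also higher in ein5 than in ein2, as AT2G39980 was in both gases. RTE1 differed by 0.83 ± 0.12 in air and 0.79 ± 0.12 in ethylene (limma adjusted p = 0.00168 and 0.00104). ARL differed by 1.28 ± 0.12 and 0.86 ± 0.12 (limma adjusted p = 4.19e-05 and 0.000481). Of all probe sets 1.22% in air and 2.82% in ethylene were called higher in ein5, and 1.95% and 7.37% lower.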

How the data were processed

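Per the labels' protocols, RNA was hybridised to ATH1 arrays and quantified by the authors with GeneChip Suite and GeneSpring. The deposited table holds a linear intensity per probe set, already brought to a common trimmed mean (2480.3 to 2487.2 after dropping 2% at each end), though how is not given in the sources used here. Following the scaling that the series text describes, each array was then scaled to the mean of the arrays' medians of values above 10 (factors 0.949 to 1.07) and log2(value + 16) was used, a scale on which changes of dim probe sets come out too small. Of the probe sets 13513 had 1 gene, 503 several and 8730 were not listed; 13436 matched the TAIR10.1 gene table. Since builds are not stated, no coordinates are given.

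Tests used limma 3.58.1 under R 4.3.3 (6 group means, all 12 arrays, variance trend, 6 residual and 7.89 prior degrees of freedom, two-sided), and the procedure was tested on simulated data. The number of arrays limits the precision. Arrays with the same replicate number did not deviate together, so no pairing was used.

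The genes, lists and tests were chosen with earlier results of these data known. Genes were named by a rule: the 4 genes, the 3 most alike to each, the 5 next below them in wild type, up to 4 called genes of a list, the measured aminotransferases and the nearest neighbours. Planned searches of promoters and protein families were not run, as no sequence was used here. Alternatives were other scalings, offsets of 1 and 64, no variance trend, array weights and fewer arrays. Further alternatives were no probe sets with a mean under 200, and the replicate number as a block. That mean is taken over all arrays. AT2G43140 passes it, at 389.9, through its ethylene groups (means of 260.7 to 1193), while its air groups had means of 20 to 69.3. For this gene the filter therefore cannot test the effect of dim air levels.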

Additional observations from a re-analysis of the deposited data

How the results depend on the processing

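There were 420 values, from 21 alternatives of the 20 tested results of the 4 genes. Of these, 402 kept direction and side of the threshold, 14 lost a call, 2 gained one and 2 changed sign. Alternatives that alter only the spread, or leave out arrays of other groups, cannot move the change itself. Its direction was fixed in advance there, and a result without a call in the main fit had none to lose. The 402 are therefore no measure of how firm the results are. Every loss was in AT1G50110 in ein2, AT2G39980 in air or AT2G43140 in ein5, and the cause was not tested. Without a variance trend these were 1.03 (adjusted p = 0.143), 0.68 (0.125) and 4.39 (0.065), and without single arrays they were 0.90 to 1.17, 0.57 to 0.78 and 4.25 to 4.53. Gains were AT1G50110 in air with array weights (0.63) and AT2G43140 in ethylene with only the compared groups (1.45). AT5G40590 in ethylene, ein5 minus ein2, changed sign with deposited intensities (0.0029) and lay at -0.36 to 0.0688 without single arrays. In wild type, an offset of 64 gave 4.96 for AT5G40590 and 3.51 for AT2G43140, which was 5.35 with an offset of 1. Without single arrays AT2G39980 there was 3.09 to 3.52 and AT2G43140 3.31 to 5.71.

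Numbers of calls over all probe sets moved more. Ethylene against air gave 369 calls in ein5 (50 without a variance trend, 867 with array weights, 106 to 576 without single arrays) and 117 in ein2 (34, 292 and 40 to 199, and 458 with only the compared groups). For ein5 against ein2 there were 2318 in ethylene (819, 3689 and 647 to 3319) and 722 in air (124, 1681 and 117 to 1246). The difference of responses had 12 (0, 194 and 0 to 88, 301 with only the compared groups, 32 without dim probe sets, 7 with deposited intensities, 4 after quantile normalization and 4 with an offset of 64). With the replicate block it had 4, and no call of the 4 genes changed; same-numbered arrays correlated in their deviations at -0.04 to 0.07 over 15 pairs of groups. Which direction held more calls changed with the scaling. For ein5 against ein2 in ethylene, 642 higher and 1676 lower became 1310 and 1003 with deposited intensities. In air, 278 and 444 became 396 and 341. For ethylene against air in ein5, 176 and 193 became 202 and 175. The dim air levels of AT2G43140 limit the size of its changes.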

Other observations

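The chromosomal neighbours of the 4 genes were examined, 24 in all. They were 3 named probe sets on either side of each in the order of the TAIR10.1 gene table. Genes without a named probe set were passed over, so these lay 1 to 15 protein-coding genes away and many are not adjacent. ATPMEPCRD, for example, lies 9 genes from AT2G43140, and AT5G40540 lies 5 from AT5G40590. In ein5 0 of the 24 were called on ethylene by limma, with 1 at an unadjusted p under 0.05, and the median change was 0.09. For all probe sets the shares called in ein5 were 0.774% higher and 0.849% lower, and 2815 of 22746 had an unadjusted p under 0.05. In ein2 1 was called higher and 0 lower, with 6 at an unadjusted p under 0.05, and the median was 0.02, beside 0.475% of all probe sets called higher, 0.0396% called lower and 2264 of 22746 at an unadjusted p under 0.05. That gene, AT1G50060, picked out after its value was seen, lies 3 protein-coding genes from AT1G50110. It had 1818 in ein2 ethylene, against 709 in ein2 air (1.34 ± 0.16, limma adjusted p = 0.001), and 5905 in ein5 ethylene, against 4021 in ein5 air (0.55 ± 0.16, limma adjusted p = 0.132). The immediate neighbour AT5G40600 of AT5G40590 changed by 0.20 ± 0.27 in ein5 and 0.14 ± 0.27 in ein2, AT1G50120 beside AT1G50110 by -0.06 ± 0.16 and 0.01 ± 0.16, and AT2G43150 beside AT2G43140 by -0.37 ± 0.58 and 0.82 ± 0.58, none of them called. On the other side the nearest named genes were AT5G40540 (-0.14 ± 0.16 in ein5 and 0.29 ± 0.16 in ein2), AT1G50080 (0.62 ± 0.62 and 2.29 ± 0.62, limma adjusted p = 0.786 and 0.162) and ATPMEPCRD (-0.21 ± 0.18 and 0.46 ± 0.18). AT2G39980 had AT2G39960 (0.28 ± 0.31 and -0.14 ± 0.31) and AT2G40010 (0.07 ± 0.16 and -0.17 ± 0.16) as its nearest named genes.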
